A study of Mus musculus with 12 samples.

Results

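The 7 rows described here belong to a mouse nasal RNA-seq count table of 55487 gene rows. The rows Gm33460, Gm11775, Cd247, Dexi, H2-DMa and Gm20496 bear on lymphocytes or antigen presentation through the row's own gene or through a gene on the other DNA strand, and the last is Ubd, an interferon and TNF inducible gene. Gm33460 lies opposite Eomes, Gm11775 opposite Cd7, Cd247 opposite Pou2f1, Dexi opposite Ciita, H2-DMa opposite Brd2 and Gm20496 opposite Psmb8. The rows were picked by name with earlier results of these same libraries known, including the calls in the comparisons below. Their own levels, fold changes and calls are therefore given as descriptions, with no p-value, and tests are given for other rows.

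All groups were C57BL/6 male mice of 6 weeks, and the labelled tissue was nasal with nasal epithelium as the cell type. The groups were KDP20 at day 10, KDP20 at day 5 and PBS vehicle labelled day 10, with 4 libraries each. The series title names diesel particles as the exposure, and the labels do not spell out KDP20. Vehicle was at day 10 alone, so KDP20 at day 5 differs from vehicle in exposure and day together. Whether libraries stem from different animals is not in the labels, and p-values here speak only of the variation among these samples, which may be technical.

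T cells and natural killer cells recognise targets through surface receptors whose signals pass along shared chains such as the CD3 zeta chain, the product of Cd247. Target cells show peptides to them on MHC class I molecules, cut by the proteasome and pumped into the endoplasmic reticulum by the TAP transporter, while professional antigen presenting cells show peptides on MHC class II molecules. The transactivator Ciita switches class II genes on, and interferon gamma raises Ciita, the immunoproteasome subunit Psmb8 and the ubiquitin-like modifier FAT10, encoded by Ubd.

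Which RNA these rows hold depends on the strand used in counting, which is not given in the sources used here. Over 1458 pairs of a coding gene and a noncoding row on the other strand with at least 100 counts together, the noncoding row held more counts in 1182 pairs (81.1%). The own rows of 12 airway epithelial genes ranged from 0 to 1 count per library for the club cell gene Scgb1a1, through 3 to 25 for Krt5, a basal cell keratin, and 28 to 70 for Epcam, an epithelial adhesion gene, to 428 to 1435 for the mucin gene Muc5b. Those of 12 olfactory genes reached 149 to 463 counts for Gnal, an olfactory G protein gene, and 22 to 135 for the olfactory marker Omp. The row Gm44323, opposite Krt5, held 605 to 2256 counts, and the row Gm15883, opposite the airway secretory gene Cyp2f2, held 27656 to 84309. Library totals ran from 1658420 to 3227138 counts, so 3 counts, used as the detection floor, correspond to 0.839 to 2.06 CPM (edgeR's depth-scaled count, with TMM-adjusted library sizes). The own row of the MHC class I gene B2m averaged 0.958 CPM over the 12 libraries. Of the own rows of 14 constitutive proteasome genes, 3 passed edgeR's filter on low counts. Whether such low own rows reflect the strand used in counting was not tested. The row CT010467.2 took 11.2%, 25.5%, 17.9% and 22.9% of counts in day 10 replicates 1, 2, 3 and 5, against 9.69% to 12.6% in day 5 libraries and 7.25% to 10.1% in vehicle libraries. Day 10 replicates 2, 3 and 5 thus stand apart from replicate 1, and values with and without them are given where they decide a result.

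The exon overlaps differ widely in size, as the map of exons shows. In GENCODE M21 on GRCm38, the antisense gene Gm33460 (chr9:118485559-118489099, minus strand) shares 118 of its 536 exonic bases with Eomes, all in the 3′ UTR of Eomes. Gm11775, an antisense gene (chr11:121029402-121052357, plus strand), shares 122 of 773 bases with Cd7, all of them coding in Cd7. Cd247 (chr1:165788681-165877277, plus strand) shares 3007 of 5329 bases, or 56.4%, with Pou2f1, of which 2918 lie in the Pou2f1 3′ UTR and 89 are coding. Dexi (chr16:10502531-10543054, minus strand) shares 329 of 3353 bases with Ciita, 111 of them coding. H2-DMa (chr17:34119541-34139101, plus strand) shares 360 of 3448 bases with the Brd2 5′ UTR. Gm20496 (chr17:34199316-34205449, minus strand) is an antisense gene that lies opposite exons over its whole 663 bases, 498 of them against Psmb8 and 165 against the neighbouring gene Tap2. Ubd (chr17:37193892-37196095, plus strand) has 931 exonic bases and no annotated gene opposite.

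**Figure D1:**
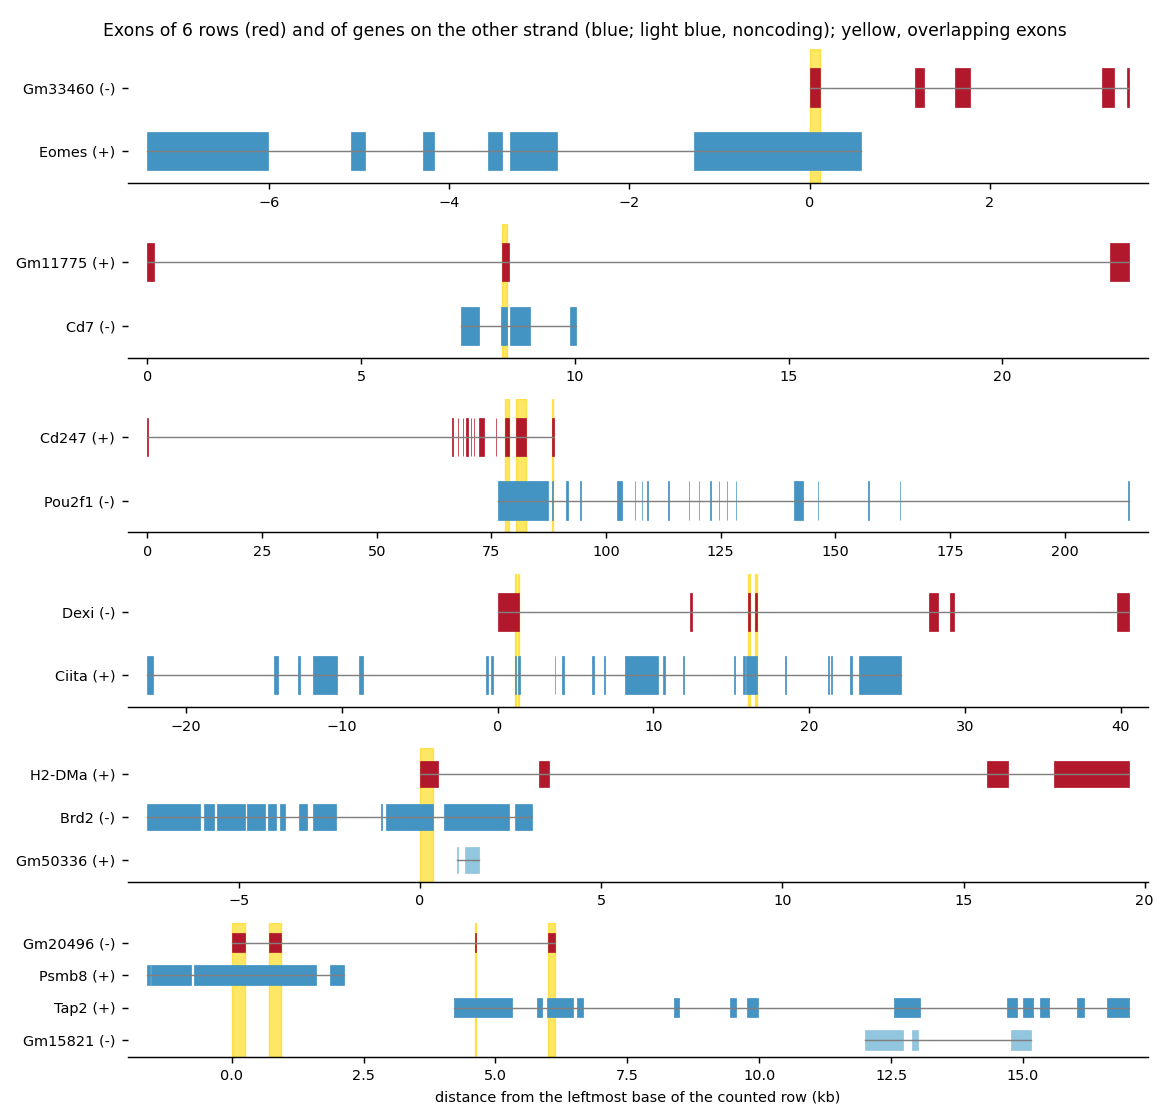
Exons (boxes) along each locus by distance in kb from the leftmost base of the row, with the row in red, genes on the other strand in blue, and further noncoding rows in light blue; the sign after each name is the strand. Yellow bands mark the overlaps, which cover 15.8% of the exonic bases of Gm11775, 56.4% of those of Cd247 and every exonic base of Gm20496.

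The coding stretches where a read from the opposite mRNA can fall on the row are printed below to show where such reads can fall within coding exons. They are the smaller share of the overlap for Cd247, Dexi and Psmb8, and the overlaps of Gm33460 and H2-DMa lie in UTRs and are not printed. Each is given 5′ to 3′ on the strand of the opposite gene, from GENCODE M21 transcripts on GRCm38, and the whole stretch is overlap, so no base is set in capitals. The Cd7 stretch is exon 3 of 4 (chr11:121037695-121037816). The Pou2f1 stretch is from exon 14 of 15 (chr1:165876977-165877065). The Ciita stretches come from exon 4 of 19 (chr16:10503666-10503728) and exon 5 (chr16:10503867-10503914). The Psmb8 stretches come from exon 2 of 6 (chr17:34199316-34199380) and exon 4 (chr17:34200141-34200257), and the Tap2 stretch from exon 2 of 12 (chr17:34205310-34205449).
Cd7, opposite Gm11775: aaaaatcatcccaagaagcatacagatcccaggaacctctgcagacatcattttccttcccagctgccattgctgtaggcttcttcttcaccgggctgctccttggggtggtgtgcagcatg
Pou2f1, opposite Cd247: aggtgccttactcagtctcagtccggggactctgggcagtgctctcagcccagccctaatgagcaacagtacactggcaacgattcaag
Ciita exon 4, opposite Dexi: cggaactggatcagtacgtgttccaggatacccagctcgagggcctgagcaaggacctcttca
Ciita exon 5, opposite Dexi: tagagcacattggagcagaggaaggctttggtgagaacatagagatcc
Psmb8 exon 2, opposite Gm20496: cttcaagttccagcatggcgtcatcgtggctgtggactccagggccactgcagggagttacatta
Psmb8 exon 4, opposite Gm20496: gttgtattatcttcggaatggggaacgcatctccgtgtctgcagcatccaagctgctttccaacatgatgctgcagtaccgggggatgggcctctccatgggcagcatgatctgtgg
Tap2 exon 2, opposite Gm20496: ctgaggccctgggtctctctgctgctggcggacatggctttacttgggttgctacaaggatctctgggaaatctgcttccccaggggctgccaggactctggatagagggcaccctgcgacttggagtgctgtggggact

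The 7 rows fall into 4 orders of level. Cd247, Ubd, Gm11775 and Dexi were highest in KDP20 day 5 libraries and lowest in KDP20 day 10 libraries, with vehicle between them. Gm33460 was highest in vehicle and lowest at day 10. H2-DMa was highest at day 10 and lowest in vehicle, and Gm20496 was highest at day 5 and lowest in vehicle.

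**Figure D2:**
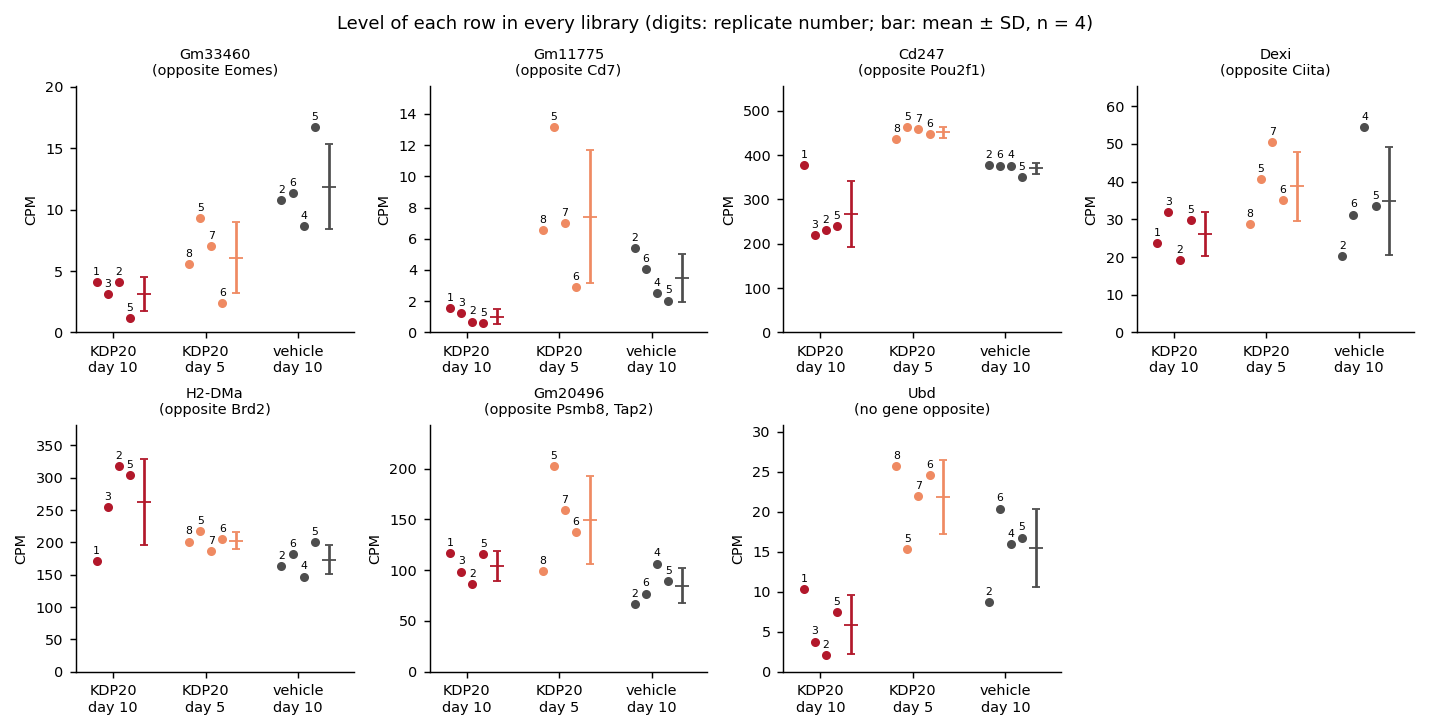
CPM of the 7 rows in each library (points, with the replicate number), with the mean and SD of 4 libraries as a bar, for KDP20 day 10, KDP20 day 5 and vehicle from left to right. For Cd247, day 10 replicate 1 sits at 378 CPM beside the vehicle libraries, while replicates 2, 3 and 5 sit at 220 to 240 CPM.

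Among the rows read through lymphocyte genes, the row of Gm33460 can report its own antisense RNA or, over 118 bases, RNA of Eomes, a T-box factor of natural killer cells and memory CD8 T cells. It had 4.12, 4.12, 3.14 and 1.14 CPM in KDP20 day 10 replicates 1, 2, 3 and 5, against 10.8, 8.67, 16.8 and 11.3 CPM in vehicle replicates 2, 4, 5 and 6. The libraries of day 5, replicates 5, 6, 7 and 8, had 9.34, 2.40, 7.01 and 5.54 CPM. Every day 10 library was below every vehicle library, and day 5 overlapped with both. The log2 fold change was -1.89 (SE 0.46) for day 10 against vehicle, -0.93 (SE 0.41) for day 5 against vehicle and -0.96 (SE 0.49) for day 10 against day 5. The day 10 sum of 21 counts against 115 in vehicle gives a ratio of 0.276 (95% counting interval 0.165 to 0.442). Eomes' own row held 0 to 3 counts in each day 10 library, 1 to 5 in each day 5 library and 1 to 3 in each vehicle library, too few to pass the filter on low counts.

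Gm11775 can report its own antisense RNA or, over 122 coding bases, RNA of Cd7, a surface protein of T and natural killer cells. It held 3, 1, 2 and 1 counts in KDP20 day 10 replicates 1, 2, 3 and 5, which is 1.54, 0.686, 1.25 and 0.571 CPM and so at or under the detection floor in every one. At day 5, replicates 5, 6, 7 and 8 had 13.2, 2.89, 7.01 and 6.55 CPM. Vehicle replicates 2, 4, 5 and 6 had 5.39, 2.52, 2.03 and 4.08 CPM. All day 10 libraries were below all others, while day 5 and vehicle overlapped. The summed 7 counts at day 10, against 65 at day 5, give a ratio of 0.137 (95% counting interval 0.0529 to 0.298), and against 35 in vehicle a ratio of 0.302 (0.113 to 0.691). These intervals cover counting error alone. Fitted log2 fold changes were -2.78 (SE 0.62) for day 10 against day 5, -1.70 (SE 0.66) for day 10 against vehicle and 1.08 (SE 0.49) for day 5 against vehicle. Cd7's own row held at most 2 counts in a day 10 library, at most 1 in a day 5 library and 0 in every vehicle library.

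Cd247 encodes CD3 zeta, the signalling chain of the T cell receptor, and its row can report Cd247 RNA or, over 56.4% of its exonic bases, Pou2f1 RNA. It had 378, 231, 220 and 240 CPM in KDP20 day 10 replicates 1, 2, 3 and 5. KDP20 day 5 replicates 5, 6, 7 and 8 had 464, 447, 459 and 435 CPM, and vehicle replicates 2, 4, 5 and 6 had 378, 376, 351 and 376 CPM. The day 5 libraries lay above all others, and day 10 replicate 1 lay with the vehicle libraries while the other day 10 libraries lay below them. The log2 fold change was -0.47 (SE 0.14) for day 10 against vehicle, 0.28 (SE 0.14) for day 5 against vehicle and -0.75 (SE 0.14) for day 10 against day 5. Without day 10 replicates 2, 3 and 5, chosen after seeing the data, the first of these was 0.031 and the last -0.26, and with the share of CT010467.2 as a covariate they were -0.02 and -0.41.

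Pou2f1, a widely expressed POU-domain transcription factor, was not called in any comparison by its own row, which can in turn report Cd247 RNA. That row had 22.9 ± 7.40 CPM at day 10, 23.8 ± 7.22 CPM at day 5 and 24.6 ± 6.51 CPM in vehicle (SD, n = 4), and edgeR gave adjusted p 0.856 for day 10 against vehicle (log2 fold change -0.10, SE 0.27) and 0.949 for day 10 against day 5 (-0.04, SE 0.27). Per kb of exon, the Cd247 row stood at 50.1, 84.7 and 69.5 CPM at day 10, at day 5 and in vehicle, and the Pou2f1 row at 1.38, 1.44 and 1.48 CPM. The chains that assemble with CD3 zeta were almost absent from their own rows: Cd3e averaged 0.172 CPM at day 10 and 0 at day 5 and in vehicle, and Cd3d averaged 0.285, 0 and 0.311 CPM. Cd3g averaged 0.172, 0.243 and 0.227 CPM. The row Gm48719, opposite Cd3e, averaged 8.65, 15.3 and 12.1 CPM at day 10, at day 5 and in vehicle and was not called. With the strand unknown, low own rows of the partner chains cannot settle the T cell label of the Cd247 row, and that label was not tested. Within the Cd247 span, Gm37856 and Gm37469 on the other strand had group means of 2.77 to 6.10 CPM and passed the filter without a call, and the rows Gm32999, Gm23402 and Gm16565 did not pass it.

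On the antigen presentation side, the Dexi row can report Dexi RNA or Ciita RNA over 329 bases. Dexi had 23.7, 19.2, 32.0 and 29.7 CPM in KDP20 day 10 replicates 1, 2, 3 and 5. Day 5 replicates 5, 6, 7 and 8 had 40.8, 35.1, 50.5 and 28.7 CPM, and vehicle replicates 2, 4, 5 and 6 had 20.3, 54.5, 33.5 and 31.2 CPM. All 3 groups overlapped, with log2 fold changes of -0.43 (SE 0.26) for day 10 against vehicle, 0.14 (SE 0.25) for day 5 against vehicle and -0.57 (SE 0.26) for day 10 against day 5. The row of Ciita, the class II transactivator, can in turn report Dexi RNA. It had 188 ± 31.0 CPM at day 10, 142 ± 19.7 CPM at day 5 and 156 ± 17.4 CPM in vehicle (SD, n = 4). At day 10 edgeR did not call Ciita at an adjusted p under 0.05. Its log2 fold change was 0.27 (SE 0.15, edgeR adjusted p 0.263) against vehicle and 0.40 (SE 0.15, adjusted p 0.084) against day 5. Ciita gained a call under 1 alternative setting in each of these comparisons.

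H2-DMa, a chaperone chain that helps load peptides onto MHC class II, was the sole one of the 7 rows whose mean was highest at day 10. Its row can report H2-DMa RNA, or RNA from the Brd2 5′ UTR over 360 bases. It had 171, 318, 254 and 304 CPM in KDP20 day 10 replicates 1, 2, 3 and 5. Day 5 replicates 5, 6, 7 and 8 had 218, 205, 186 and 201 CPM, and vehicle replicates 2, 4, 5 and 6 had 164, 147, 200 and 182 CPM. Day 10 replicates 2, 3 and 5 lay above every day 5 and vehicle library, and replicate 1 lay among the vehicle libraries. The log2 fold change was 0.60 (SE 0.16) for day 10 against vehicle, 0.23 (SE 0.16) for day 5 against vehicle and 0.37 (SE 0.16) for day 10 against day 5. Without day 10 replicates 2, 3 and 5 the first was -0.014, and with the share of CT010467.2 as a covariate it was -0.13.

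Other rows of the Brd2 locus were tested. Brd2, a BET bromodomain protein that binds acetylated histones, had 109 ± 19.7 CPM at day 10, 79.2 ± 4.11 CPM at day 5 and 83.3 ± 16.2 CPM in vehicle (SD, n = 4). Its log2 fold change of 0.37 (SE 0.16) for day 10 against vehicle had an edgeR adjusted p of 0.156, and that of 0.45 (SE 0.16) for day 10 against day 5 an adjusted p of 0.0766. Brd2 gained a call under 2 alternative settings in each of these comparisons. Against vehicle the replicate block was among them, at 0.77 (SE 0.17). The noncoding row Gm50336 (chr17:34120568-34121158, plus strand) has all of its 405 exonic bases opposite Brd2 and lies within the H2-DMa span. It had 47.8, 63.9, 49.6 and 62.2 CPM in KDP20 day 10 replicates 1, 2, 3 and 5, against 34.0, 27.1, 29.9 and 40.8 CPM in vehicle replicates 2, 4, 5 and 6. Day 5 replicates 5, 6, 7 and 8 had 47.6, 39.4, 22.9 and 29.2 CPM. All day 10 libraries, replicate 1 included, were above all others. Gm50336 rose at day 10 against vehicle (log2 fold change 0.76, SE 0.21, edgeR adjusted p 0.0326) and against day 5 (0.68, SE 0.21, adjusted p 0.0446), and the day 5 difference from vehicle was 0.09 (SE 0.22, adjusted p 0.890). The call against vehicle was lost without day 10 replicate 2, 3 or 5 or vehicle replicate 2, 4 or 5, and both calls were lost with the share of CT010467.2 as a covariate (log2 fold changes 0.31 and 0.32), with a GC correction (0.34 and 0.43) and without day 10 replicates 2, 3 and 5 (0.55 and 0.45). The call against day 5 was kept without day 10 replicate 1, day 5 replicate 5 or vehicle replicate 4, and lost without any other library. Over all alternative settings, leaving out libraries included, the call of Gm50336 against day 5 was lost in 15. Gm50335 and Gm20493, on the other strand within the H2-DMa span, were not called, with day 10 against vehicle log2 fold changes of -0.02 and 0.03.

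**Figure D3:**
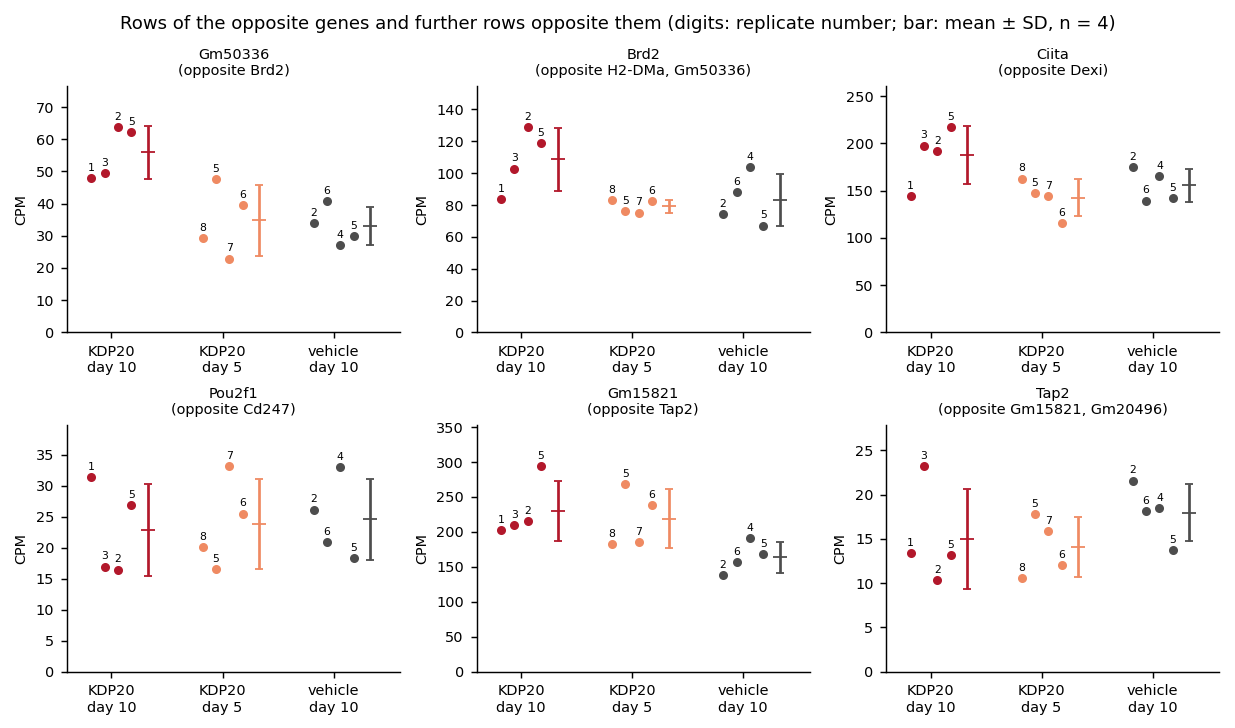
CPM in each library (points, with the replicate number) of the rows of Brd2, Ciita, Pou2f1 and Tap2 and of 2 further noncoding rows opposite Brd2 and Tap2, with the mean and SD of 4 libraries as a bar. Gm50336 holds 47.8 to 63.9 CPM in the day 10 libraries, above all day 5 and vehicle libraries.

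Gm20496 can report its own antisense RNA, RNA of Psmb8 over 498 bases or RNA of Tap2 over 165 bases, and no exonic base of it is free of an opposite exon. Psmb8 is the LMP7 catalytic subunit of the immunoproteasome, and Tap2 is a subunit of the peptide transporter. Gm20496 had 117, 86.5, 98.5 and 116 CPM in KDP20 day 10 replicates 1, 2, 3 and 5. Day 5 replicates 5, 6, 7 and 8 had 203, 138, 159 and 99.2 CPM, and vehicle replicates 2, 4, 5 and 6 had 66.8, 107, 89.3 and 77.0 CPM. The day 5 and vehicle groups overlapped through day 5 replicate 8 and vehicle replicate 4, and day 10 overlapped with both. The log2 fold change was 0.30 (SE 0.19) for day 10 against vehicle, 0.81 (SE 0.18) for day 5 against vehicle and -0.52 (SE 0.18) for day 10 against day 5.

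The genes opposite Gm20496 were read from their own rows. Psmb8's own row held 0 counts in every day 10 library and at most 2 in any day 5 or vehicle library. Per kb of exon, Gm20496 stood at 158 CPM at day 10, 226 CPM at day 5 and 128 CPM in vehicle, and Psmb8 at 0, 0.0628 and 0.146 CPM. Tap2's own row had 15.0 ± 5.65, 14.1 ± 3.36 and 18.0 ± 3.24 CPM at day 10, at day 5 and in vehicle (SD, n = 4), and edgeR made no call (adjusted p 0.615 for day 10 and 0.585 for day 5 against vehicle). Gm15821, a further noncoding row with exons opposite Tap2, had 230 ± 42.9, 219 ± 41.9 and 164 ± 22.4 CPM in the same order. Every day 10 library of Gm15821 was above every vehicle library, yet its log2 fold change of 0.49 (SE 0.15, edgeR adjusted p 0.0525) missed the threshold of 0.05, as did 0.42 (SE 0.15, adjusted p 0.169) for day 5 against vehicle. Under 6 alternative settings, DESeq2, RLE scaling and the replicate block among them, Gm15821 was called higher at day 10 against vehicle.

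The exons of Ubd meet no annotated gene on either strand. Its row can report Ubd RNA or an unannotated RNA of the other strand, and which of them it held was not tested. Ubd had 10.3, 2.06, 3.77 and 7.42 CPM in KDP20 day 10 replicates 1, 2, 3 and 5. Day 5 replicates 5, 6, 7 and 8 had 15.3, 24.5, 21.9 and 25.7 CPM, and vehicle replicates 2, 4, 5 and 6 had 8.71, 15.9, 16.8 and 20.4 CPM. Day 10 lay below day 5 in every library, and vehicle replicate 2 fell within the day 10 range. The log2 fold change was -1.33 (SE 0.37) for day 10 against vehicle, 0.50 (SE 0.32) for day 5 against vehicle and -1.83 (SE 0.37) for day 10 against day 5. The 42 counts at day 10, against 185 at day 5, give a ratio of 0.288 (95% counting interval 0.201 to 0.405). Without day 10 replicates 2, 3 and 5 the log2 fold change was -0.58 against vehicle and -1.08 against day 5. In bulk tissue, fewer cells of a type and less RNA per cell cannot be told apart, for Ubd as for the other rows.

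The Ubd promoter is shown because Ubd is the row with an unshared locus and is known as an inflammatory target gene. The 250 bases before the start site (chr17:37193642-37193891, plus strand, RefSeq on GRCm38.p6) are given 5′ to 3′. Capitals mark the letters CCAAT read on the other strand (ATTGG), at positions -222 and -134 from the start, and a match to the NF-kappaB-like letters, GGG, any 2 bases, TT, any base and CC, at -15.
Ubd promoter: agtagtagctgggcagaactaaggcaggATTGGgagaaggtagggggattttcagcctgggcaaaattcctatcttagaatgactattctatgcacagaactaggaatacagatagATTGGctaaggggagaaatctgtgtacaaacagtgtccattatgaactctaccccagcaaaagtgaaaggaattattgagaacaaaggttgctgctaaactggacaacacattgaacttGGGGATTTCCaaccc
Searched on both strands, the NF-kappaB-like letters occur in 4.79% of 32851 RefSeq promoter windows of 300 bases (250 before and 50 after the start), and CCAAT in 37.4%. The interferon response letters GAAA, any 2 bases and GAAA (3.44% of windows) and the letters TTC, any 3 bases and GAA (8.3%) were not found in the Ubd window. Of 14 symbols looked up, 9 had a promoter entry.

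Of the 7 rows, all of which passed the low count filter, 4 were called by edgeR at an adjusted p under 0.05 for day 10 against vehicle, where 7.08% of 13181 tested rows were called. H2-DMa was the higher one (3.93% of rows were called higher), and Gm33460, Cd247 and Ubd were the lower ones (3.15% lower). For day 5 against vehicle 1 row, Gm20496, was called, higher (0.66% of rows called, 0.41% higher). For day 10 against day 5, Gm11775, Cd247 and Ubd were called, all lower (10.1% of rows called, 5.49% lower and 4.66% higher). Because those calls took part in choosing the rows, they are no test of them and nothing is read from these counts. Groups did not overlap in 2 of the 7 rows for day 10 against vehicle (9.98% of tested rows), in 1 for day 5 against vehicle (11.7%) and in 3 for day 10 against day 5 (12.5%). The median log2 fold change of the 7 rows was -0.47, 0.28 and -0.75 in the same comparisons, against -0.01, -0.03 and 0.01 over all tested rows. The comparisons share groups, so their values are not independent of each other.

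**Figure D4:**
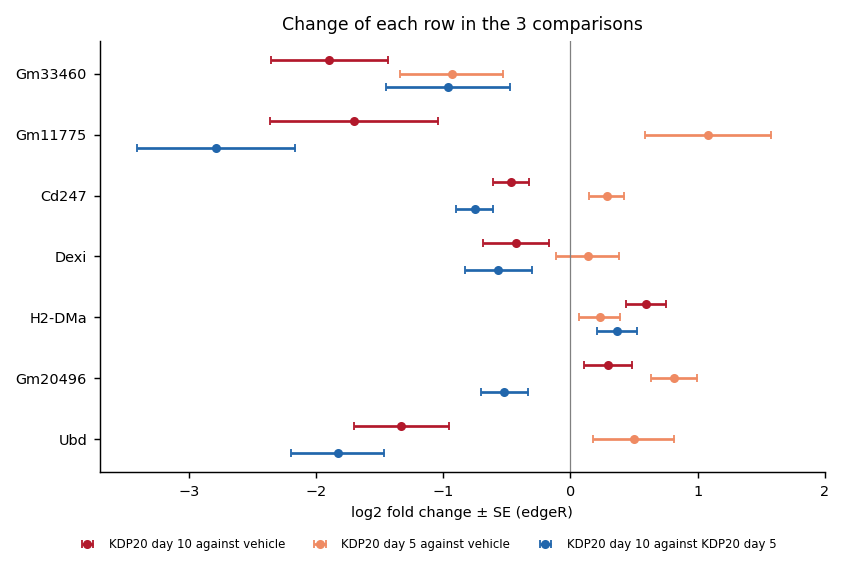
Log2 fold change of each row with its SE (edgeR), for KDP20 day 10 against vehicle (red), KDP20 day 5 against vehicle (orange) and KDP20 day 10 against KDP20 day 5 (blue). Gm11775 has the lowest value, -2.78 for day 10 against day 5, and H2-DMa is the one row above 0 in all 3 comparisons.

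How far these calls depend on the libraries is given as a description too. Of the 4 rows called for day 10 against vehicle, Gm33460 alone stayed called without day 10 replicate 2 or 3 or vehicle replicate 4 or 6, H2-DMa alone without vehicle replicate 5, Gm33460 and Ubd without vehicle replicate 2, and 0 rows without day 10 replicate 5. Cd247 also lost its call without any 1 of the day 5 libraries, which share the estimate of spread. The day 5 call of Gm20496 was lost without day 5 replicate 5, 6 or 7, vehicle replicate 2 or 6, or day 10 replicate 3. The 3 calls for day 10 against day 5 were kept without any single library, and without day 10 replicate 1 they became 5, with H2-DMa higher and Gm20496 lower. In that comparison Gm11775 was not called with DESeq2, the replicate block, the 10 CPM filter or the 8 compared libraries alone. Ubd was not called there with the replicate block. With the share of CT010467.2 as a covariate, or without day 10 replicates 2, 3 and 5, 0 of the 7 rows were called in either comparison that includes day 10. The fold changes did not all shrink alike. Gm33460 at day 10 against vehicle had -1.64 (SE 0.78) with the covariate and -1.50 (SE 0.68) without those libraries, and Gm11775 at day 10 against day 5 had -1.997 (SE 0.90) and -2.24 (SE 0.99). H2-DMa at day 10 against day 5 turned to -0.22 and -0.25.

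Other genes of these pathways were read from 9 lists of 152 genes, by their own rows and by rows opposite them, leaving out the 7 rows. Of 180 such rows, 71 passed the filter. For day 10 against vehicle, 6 of the 71 were called (8.45%, beside 7.08% of all tested rows), 2 higher and 4 lower. For day 10 against day 5, 9 were called (12.7%, beside 10.1%), 3 higher and 6 lower. These shares lie near those of all tested rows. For day 5 against vehicle edgeR called 0 of the 71, with 12 at an unadjusted p under 0.05, while DESeq2 called 3 and limma-voom 2. The median log2 fold change over the 71 rows was -0.0013 for day 10 against vehicle and -0.013 for day 10 against day 5, and it was 0.08 for day 5 against vehicle. With the share of CT010467.2 as a covariate 0 list rows were called in the comparisons that include day 10, so the calls of single genes below hold for the fit without it. With the strand unknown, an own row may hold RNA of the other strand. Each rise or fall named below is therefore one of a row, and whether the gene's mRNA changed was not tested.

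**Figure D5:**
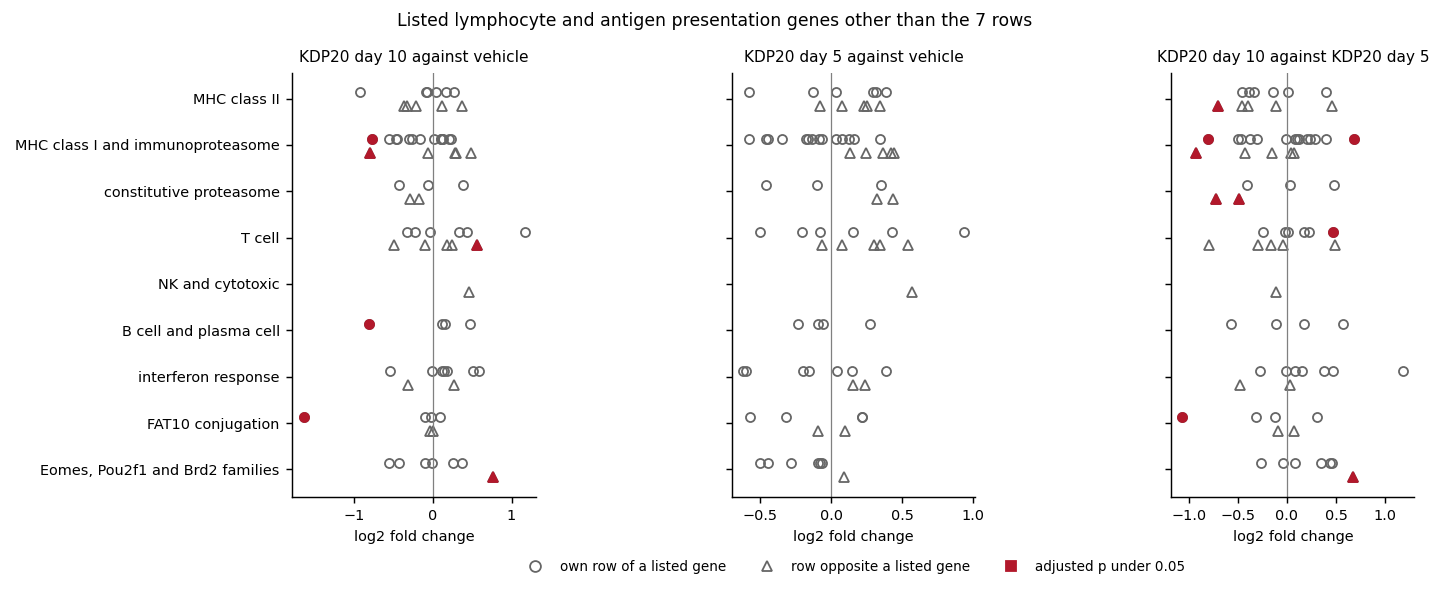
Log2 fold change of each tested row of the 9 lists, without the 7 rows, for the 3 comparisons from left to right; circles are own rows, triangles are rows opposite a listed gene, and filled red symbols have an edgeR adjusted p under 0.05. Red symbols number 6 in the left panel, 0 in the middle and 9 on the right.

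In the MHC class II list, edgeR called 0 of 6 tested own rows in each comparison, with 1 at an unadjusted p under 0.05 in each and 0 calls by DESeq2 or limma-voom. Own rows of the class II chains themselves were near the floor, with H2-Aa at 0.443, 0.708 and 0.887 CPM and H2-Ab1 at 1.43, 2.61 and 1.71 CPM at day 10, at day 5 and in vehicle. Cd74, the invariant chain, averaged 6.54, 8.35 and 12.5 CPM, a log2 fold change of -0.92 for day 10 against vehicle with an edgeR adjusted p of 0.184. Of 5 tested opposite rows, 6330537M06Rik, opposite the lysosomal thiol reductase gene Ifi30, fell at day 10 against day 5 (log2 fold change -0.70, SE 0.17, adjusted p 0.0107), at 95.5 ± 24.8 CPM against 156 ± 24.2 CPM (SD, n = 4).

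In the MHC class I and immunoproteasome list, 15 own rows and 5 opposite rows were tested. Canx, the calnexin chaperone of newly made class I chains, fell at day 10 against vehicle, at 37.3 ± 9.10 CPM against 63.4 ± 14.4 CPM (SD, n = 4; log2 fold change -0.77, SE 0.19, edgeR adjusted p 0.0196). Tapbpl, a peptide editor of class I molecules, rose at day 10 against day 5, at 191 ± 35.3 CPM against 118 ± 22.0 CPM (0.68, SE 0.15, adjusted p 0.00593). Erap1, which trims peptides in the endoplasmic reticulum, and Cast, the calpain inhibitor gene that overlaps it on the other strand, both fell at day 10 against day 5 (-0.80 and -0.92, adjusted p 0.0082 and 0.0073), and either row can report the other's RNA. Erap1 had 90.4 ± 36.5 CPM at day 10, 159 ± 15.8 CPM at day 5 and 125 ± 4.56 CPM in vehicle (SD, n = 4). Cast was also lower at day 10 against vehicle (-0.79, SE 0.21, adjusted p 0.0247). Of the constitutive proteasome list, the rows Nek6, opposite Psmb7, and AY074887, opposite Psma4, fell at day 10 against day 5 (-0.49 and -0.72, edgeR adjusted p 0.0138 and 0.028).

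In the T cell list, 6 own rows were tested beside Cd247. Cd27, a costimulatory receptor of the TNF receptor family, rose at day 10 against day 5, at 128 ± 13.6 CPM against 92.3 ± 8.27 CPM (SD, n = 4), a log2 fold change of 0.47 (SE 0.14) with an edgeR adjusted p of 0.0408. Lef1os1, opposite the T cell and Wnt pathway factor Lef1, rose at day 10 against vehicle (0.57, SE 0.16, adjusted p 0.0356). Without Cd247, the own rows of the T cell list summed to 307 to 361 CPM per library at day 10, 266 to 302 CPM at day 5 and 281 to 357 CPM in vehicle. The rows of Foxp3 and Cd27 made up most of that sum at day 10, with means of 150 and 128 CPM. The Foxp3 row can also report RNA of Ccdc22 or Ppp1r3f on the other strand. Cd2, Trbc1 and Ctla4 were at 0 in every library. Of the natural killer and cytotoxic list, 0 of 17 own rows passed the filter, and Tbx21, Klrd1, Klrc1, Gzmb, Fasl, Ifng and Xcl1 were at 0 in every library. The own rows of that list summed to 5.66 to 8.24 CPM at day 10, 9.57 to 14.0 CPM at day 5 and 4.98 to 13.3 CPM in vehicle, from rows at or near the detection floor. Of the B cell and plasma cell list, Cr2, the complement receptor CD21, fell at day 10 against vehicle, at 28.7 ± 12.6 CPM against 51.1 ± 7.90 CPM (-0.81 on the log2 scale, SE 0.24, edgeR adjusted p 0.0398). The other tested own rows of that list, Cd79a, Ebf1 and Xbp1, went the other way without a call, at 0.47, 0.12 and 0.16. Ighd, Jchain and Mzb1 were at 0 in every library.

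Among genes tied to Ubd, the interferon list had 7 tested own rows and edgeR called 0 of them, with 1 at an unadjusted p under 0.05 in each comparison with vehicle and 2 for day 10 against day 5. DESeq2 also called 0, and limma-voom called 0 in the comparisons with vehicle and 1 for day 10 against day 5. Irf1, an interferon induced factor, averaged 53.5, 41.2 and 47.1 CPM at day 10, at day 5 and in vehicle. In the FAT10 list, the own row of Uba6, the E1 enzyme that activates FAT10 and ubiquitin, fell at day 10 against both groups. Uba6 had 11.3 ± 6.41 CPM at day 10, 24.3 ± 5.49 CPM at day 5 and 36.1 ± 3.29 CPM in vehicle (SD, n = 4). Its log2 fold change was -1.64 (SE 0.29, edgeR adjusted p 0.005) against vehicle and -1.06 (SE 0.30, adjusted p 0.0251) against day 5. The other tested own rows of that list, Ube2z, Nub1 and Sqstm1, were not called, and neither were the rows Gm26648 and Mrnip opposite Nub1 and Sqstm1. Among the alternative settings, leaving out libraries included, Uba6 lost its call against vehicle in 2 and against day 5 in 9, Cd27 lost its call in 17, Cr2 in 13, AY074887 in 10, Lef1os1 in 9, Canx in 8, and Cast its call against vehicle in 10. Tapbpl gained a call, lower at day 5 against vehicle, in 9.

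Markers of other cells of the nose were read beside these rows. Own rows of 12 macrophage and dendritic cell genes summed to 229 to 298 CPM at day 10, 231 to 255 CPM at day 5 and 205 to 248 CPM in vehicle, and those of 12 neutrophil genes to 297 to 446, 260 to 373 and 273 to 421 CPM. Of the neutrophil genes, S100a8, Ly6g and Cxcr2 were at 0 in every library. Own rows of 12 airway epithelial genes summed to 455 to 579, 378 to 540 and 478 to 632 CPM, and those of 12 olfactory epithelial genes to 319 to 343, 313 to 378 and 306 to 359 CPM. The own-row ranges of the 3 groups ran into each other in these 4 lists. The rows opposite airway genes summed to 18380 to 22860 CPM at day 10, 23650 to 30820 CPM at day 5 and 21530 to 28060 CPM in vehicle, so that day 10 lay below day 5. Of these, Gm15883, opposite Cyp2f2, fell at day 10 against day 5 (log2 fold change -0.45, SE 0.13, edgeR adjusted p 0.0244). Gm44323, opposite Krt5, rose at day 5 against vehicle (0.94, SE 0.22, edgeR adjusted p 0.0469). Its libraries overlapped between these groups, at 395.2 to 1085 CPM at day 5 and 304.2 to 534.5 CPM in vehicle. Muc5b rose at day 10 against day 5 (0.40, SE 0.13, edgeR adjusted p 0.0483). In the neutrophil list, Mmp9, a gelatinase of neutrophils and other cells, rose at day 10 against vehicle, at 245 ± 38.0 CPM against 161 ± 26.1 CPM (SD, n = 4; log2 fold change 0.61, edgeR adjusted p 0.0189). The other tested own rows of that list, Ltf, Ngp and Camp, had log2 fold changes of -0.53, -1.24 and 0.04 and were not called. The row Gm11505, opposite the neutrophil peroxidase gene Mpo, held 3 counts in all at day 10, 132 at day 5 and 129 in vehicle. Its libraries ranged from 0 to 0.628 CPM at day 10, 0.504 to 33.1 CPM at day 5 and 2.91 to 19.9 CPM in vehicle. The lowest day 5 library thus lay within the day 10 range. Mppe1, opposite Gnal, and Galnt5, opposite the olfactory list gene Ermn, fell at day 10 against vehicle (-0.53 and -0.70, edgeR adjusted p 0.0337 and 0.0413). The part of cell makeup in the values of the 7 rows was not tested.

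Other rows followed the same pattern over the libraries. By the root mean square difference of centred log2 CPM over 12 libraries, among 9964 rows, the nearest to Cd247 were Nkiras1, Rffl and Ldlrad4, at 0.0878, 0.0899 and 0.0992, against an SD of 0.374 for Cd247 itself. Nkiras1 lies opposite Rpl15 and Ube2e1, Rffl opposite Lig3 and Ldlrad4 opposite Fam210a. The nearest to H2-DMa, with an SD of 0.325, were Klc3 (0.0781, opposite Ercc2), Gm28529 (0.0954, opposite Epc1) and Pcif1 (0.0982, opposite Zfp335). The nearest to Gm20496, with an SD of 0.426, were Gm20412 (0.170, opposite Tgm2), 9130023H24Rik (0.186, opposite Armc5) and H2-M10.6 (0.201). For Ubd the nearest were Gm7097 (0.374, opposite Slc16a9), Gm13625 (0.386, opposite Ssb) and Tmem255a (0.417, opposite Zbtb33), against an SD of 0.952. Dexi, with an SD of 0.43, was nearest to Cerkl (0.200, opposite Itga4), Gm14455 (0.261, opposite Cass4) and Gm26684 (0.264, opposite Enpp2). Gm33460 was nearest to Smco3, Haus6 and Nfkbiz at 0.469 to 0.475, against an SD of 0.855. Gm11775 was nearest to Alg6, R3hcc1l and Hspa4l at 0.503 to 0.549, against an SD of 0.946. These matches of Gm33460 and Gm11775 are loose. The likeness is a description over libraries that share their groups and their depth.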

How the data were processed

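RNA-seq gene counts from 12 libraries (3 groups of 4) of mouse nasal tissue were used as deposited. Per the labels' protocols, a SMARTER mRNA-Seq kit turned total RNA into libraries. Per the submitters' processing notes, the authors used FastQC, Trim Galore, STAR, HTSeq and mm10, and the values deposited are whole-number counts. Strand setting, counting mode, annotation and versions: not given in the sources used here.

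Rows were placed in GENCODE M21 (GRCm38) with bedtools 2.31.1 and Python 3.11.15, and a row was called opposite a gene when their exons shared at least 50 bases on different strands. The quasi-likelihood F test of edgeR 4.0.16 (R 4.3.3) was applied after filterByExpr and TMM scaling. The model held group alone and all 12 libraries, and p-values were adjusted by Benjamini-Hochberg over 13181 rows. SEs are the log2 fold change divided by the square root of F. Fold changes put the group named earlier on top. The common biological coefficient of variation was 0.213, and the chi-square per row between replicates was 2.96 to 18.0 over 18 pairs, so none was a repeat deposit.

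The 7 rows, the lists and the tests were chosen with earlier results of these data known. Named rows are the 7 rows, rows of genes opposite or overlapping them, up to 4 called genes of each list with the smallest adjusted p, and for each of the 7 the 3 nearest rows (mean log2 CPM 2 or more) that belong to, or lie opposite, a named coding gene. Uncalled marker and pathway genes (such as Epcam, Cd3e, H2-Aa, Cd74, Irf1 and Foxp3), Gm15821 and Tap2 were named after their values were seen.

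The pipeline was tested on simulated data of 13181 rows (day 10 against vehicle). Of planted changes, 51% at 2-fold and 88% at 4-fold were found, and false calls made up 6.08%. The simulated libraries of a group shared their mean in each row. These shares therefore do not cover a departing library such as day 10 replicate 1. Alternatives were RLE and upper-quartile scaling, no filter, a filter of 10 CPM in 4 libraries, DESeq2 1.42.0, limma-voom (limma 3.58.1), a block for replicate number, fits of only the 8 libraries compared, each library left out, the row CT010467.2 left out or its share as a covariate, and a GC correction (loess, span 0.5). Leaving out day 10 replicates 2, 3 and 5 was added after seeing the data. All 12 libraries enter each reported fit.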

Additional observations from a re-analysis of the deposited data

Results flagged for a closer look

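Gm11775, Cd247 and Ubd stood apart for their difference between the KDP20 days. The log2 fold change of day 10 against day 5 was -2.78 for Gm11775, -0.75 for Cd247 and -1.83 for Ubd. These rows were chosen with this comparison known, so the difference is a description and no test of it is given. Vehicle was at day 10 alone, so this is a difference between days of KDP20 and not one of KDP20 effects.

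In Cd247, day 10 replicate 1 lay far from the other day 10 libraries, with a gap of 0.833 of the group's range of log2 CPM, and vehicle replicate 5 lay far from the other vehicle libraries, with a gap of 0.946. The vehicle range itself was narrow, at 351 to 378 CPM. There were 21 such checks, and chance marks about 1 in 20 groups.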

How the results depend on the processing

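Counts are given as all rows, the 7 rows and the list rows called. For day 10 against vehicle (933, 4 and 6), they were 423, 1 and 3 with the 8 compared libraries alone, 403, 1 and 2 with the GC correction, and 0, 0 and 0 with the share of CT010467.2 as a covariate or without day 10 replicates 2, 3 and 5, where the lone day 10 library is assumed to vary like the other groups. At an unadjusted p under 0.05 edgeR then had 500 and 912 rows. For day 5 against vehicle (87, 1 and 0), all rows and list rows were 135 and 1 with the 10 CPM filter, 656 and 3 with 8 libraries, 370 and 2 with the covariate, 511 and 3 with DESeq2, 284 and 2 with limma-voom, 278 and 1 with no filter, and 1 list row was called with the GC correction. For day 10 against day 5 (1337, 3 and 9), they were 2, 0 and 0 with the covariate, 0, 0 and 0 without the 3 day 10 libraries (1356 and 1142 rows at an unadjusted p under 0.05), and 5 list rows with 8 libraries. The higher and lower calls for day 10 against vehicle, 518 and 415, were 325 and 78 with the GC correction, 777 and 924 with the replicate block, and 1220 and 1464 without day 10 replicate 1. The cause was not tested.

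Leaving out 1 library gave 95 to 2684 rows, 0 to 4 of the 7 and 1 to 17 list rows for day 10 against vehicle. The ranges were 5 to 569, 0 to 1 and 0 to 3 for day 5 against vehicle, and 623 to 2689, 3 to 5 and 4 to 17 for day 10 against day 5. For day 10 against vehicle the lowest came without day 10 replicate 5 and the highest without day 10 replicate 1. For day 5 against vehicle the lowest came without day 5 replicate 5, and the highest again without day 10 replicate 1.

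Among fold changes of called rows, signs turned for Cd247 (0.031) and H2-DMa (-0.014) at day 10 against vehicle without the 3 day 10 libraries, and for H2-DMa (-0.13) and Lef1os1 (-0.039) with the covariate. Of 488 alternative fold changes of the 7 rows, 7 turned sign: the 3 of Cd247 and H2-DMa above, H2-DMa at day 10 against day 5 (-0.22 with the covariate and -0.25 without the 3 libraries), and Dexi at day 5 against vehicle without day 5 replicate 7 or vehicle replicate 2 (-0.012 and -0.041). Of 1207 alternative fold changes of other named rows, 58 turned sign, among them, at day 10 against vehicle, Erap1 (0.18) and 6330537M06Rik (0.097) without the 3 libraries and Pou2f1 (0.46) with the covariate. Counts behind Gm11775, Gm33460 and Ubd limit their precision.

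Whether same-numbered libraries share more than a number is not settled by their correlations. The 5 same-numbered pairs correlated at -0.0894 to 0.123, against -0.118 to 0.113 for 43 other pairs. With the replicate number as a block, 1701 rows and 15 list rows were called for day 10 against vehicle and 33 rows for day 5 against vehicle.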

Other observations

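Own rows of further listed genes lay well above the floor or, for Tap1, near it. The own row of Foxp3, the regulatory T cell factor, had 150, 132 and 119 CPM at day 10, at day 5 and in vehicle. That row can report Foxp3 RNA or RNA of Ccdc22 or Ppp1r3f, which lie opposite it. The rows Ccdc22 and Ppp1r3f averaged 0.143, 0.457 and 0.629 CPM and 0.257, 1.38 and 1.11 CPM in the same order. Cd274, the PD-L1 checkpoint ligand gene, averaged 119, 85.2 and 82.6 CPM in the same order, a log2 fold change of 0.51 for day 10 against vehicle with an edgeR adjusted p of 0.0865. The rows Psmb9 and Tap1, whose exons overlap on opposite strands, had 13.9, 18.9 and 14.6 CPM and 0.457, 1.14 and 0.493 CPM. These genes were named after their values were seen.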
